A study of Homo sapiens with 2 samples.

Results

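Protein phosphatase 1 (PP1) is the serine/threonine phosphatase whose catalytic subunits work in complex with many regulatory subunits. The genes described here are its 3 catalytic genes, PPP1CA, PPP1CB and PPP1CC, and the 39 genes whose symbol is PPP1R followed by a number. They are 42 of the 18267 genes with counts in the deposited table. The set was proposed with the values known, because PPP1R16B had nearly all of its reads in 1 of the 2 libraries, so the levels and ratios below describe these libraries and carry no test.

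The study asked how human A375 cells, a melanoma line, resist dacarbazine (DTIC), a drug that alkylates DNA. Bulk RNA-seq was measured in 1 library labelled DR (DTIC-resistant, made in the study by exposure to rising DTIC) and 1 library labelled WT (the wild-type control), and the labels of both give A375 cells and the same 105 days of treatment, with the drug spelled DITC. The count columns were tied to the samples by the sample descriptions, which differ in a single punctuation mark and do not name the wild type, and every direction below rests on them. With 1 library per label there is no replicate check, and a difference is one between 2 libraries, not between conditions.

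The libraries held 54878310 (DR) and 35294629 (WT) reads in genes. CPM are counts scaled to a common library size, after correction of library sizes by the TMM method, and 3 reads were worth 0.0540 CPM in DR and 0.0861 CPM in WT. The cell type label was set against markers. Of 8 melanocytic markers, 6 had counts, with a summed level of 41.6 CPM in DR and 40.4 CPM in WT, most of it MITF, while SOX10 had 3 reads and 0 reads, TYRP1 0 and 17, and DCT 13 and 9. PMEL had 248 and 82 reads (4.46 and 2.35 CPM) and MLANA 123 and 89 reads (2.21 and 2.55 CPM). TYR and S100B were not among the genes with counts. All 8 plasma cell markers were abundant, between 58.1 and 2012 CPM in DR and between 64.5 and 2917 CPM in WT. SOX10, TYRP1 and DCT were thus at or near 0, while MITF (34.6 CPM in DR and 34.7 CPM in WT), PMEL and MLANA were detected. With plasma cell genes abundant in both libraries, the data go against the cell type label, and the libraries are named by their labels alone.

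PP1 gains its substrates from its partners. A regulatory subunit docks on the catalytic subunit and carries it to myosin, glycogen, chromatin or the translation factor eIF2, or blocks its active site. The PPP1R12 and PPP1R16 genes encode the myosin phosphatase targeting family, in which PPP1R12A (MYPT1) is the classical subunit that directs PP1 to the myosin light chain. PPP1R16B, also called TIMAP, is a membrane-anchored relative best known from endothelial cells, and PPP1R16A (MYPT3) is its closest paralog.

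Of the 42 genes, 36 had at least 10 reads over both libraries. A log2 fold change here is that of CPM + 0.5, DR over WT. By this measure 3 of the 36 lay more than 2-fold higher in DR (PPP1R16B, PPP1R1A and PPP1R13L) and 2 more than 2-fold lower (PPP1R15A and PPP1R9A), while 31 stayed within 2-fold. Among all 16210 genes with at least 10 reads, 7.48% lay more than 2-fold higher, 4.16% more than 2-fold lower and 11.6% in either direction, against 13.9% of these members. Without PPP1R16B, the gene for which the set was proposed, 11.4% of the other 35 members lay past 2-fold, close to the share of all genes. The median log2 fold change of the 36 was 0.08, against 0.01 for all genes. Of the 36, 20 had a log2 fold change above 0 and 16 below 0. The genes that passed 2-fold by the least were PPP1R9A (log2 fold change -1.17) and PPP1R13L (1.31), and those that came closest without passing it were PPP1R1B (0.92) and PPP1R35 (0.73). Summed over the 42 genes, the level was 2188 CPM in DR and 2254 CPM in WT, and without PPP1R16B it was 2088 and 2254 CPM.

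**Figure D1:**
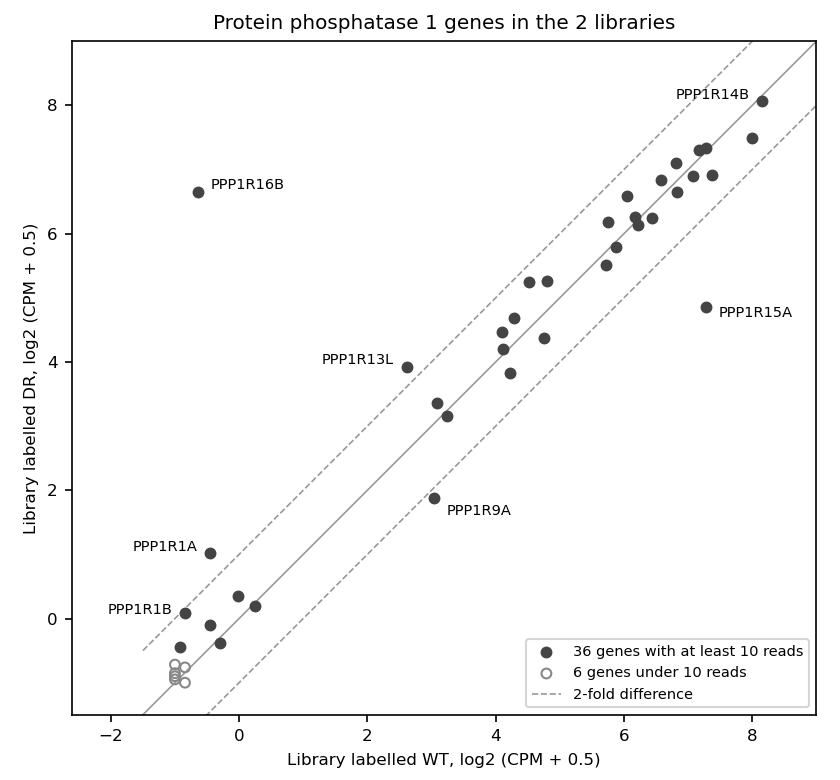
Level of each of the 42 protein phosphatase 1 genes in the library labelled WT (horizontal axis) and the library labelled DR (vertical axis), both as log2 (CPM + 0.5), with 1 point per gene, the line of equal level and dashed lines at a 2-fold difference. PPP1R16B stands far above the upper line, PPP1R15A below the lower one, and most genes lie between them.

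The 6 genes under 10 reads were nearly silent in both libraries. PPP1R3C, a glycogen-targeting subunit, had 6 reads in DR and 0 in WT. PPP1R27 had 5 and 2 reads, PPP1R14C 3 and 0, PPP1R42 2 and 0, PPP1R14A 1 and 0, and PPP1R3A, the muscle glycogen-targeting subunit, 0 and 2. No fold is given for them, since these counts are at or barely above the floor of 3 reads.

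PPP1R16B (NCBI Gene 26051) had 5567 reads in DR and 5 reads in WT, or 100.2 and 0.143 CPM. It was a well expressed gene in one library and all but silent in the other. The log2 fold change was 7.29. Without a pseudocount the CPM ratio was 699-fold, with a 95% Clopper-Pearson interval of 299 to 2152 that covers read counting only. Per kilobase of the gene length in the table, its level was 16.3 CPM in DR, rank 17 among the 42 genes and percentile 70.6 of all tested genes, and 0.0234 CPM in WT, rank 36 and percentile 2.34. Its counts were whole numbers, but how reads shared between genes were assigned is not given in the sources used here. The pseudogene RN7SL116P overlaps it in RefSeq.

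PPP1R16A, the paralog, was detected in both libraries. It had 2112 reads in DR and 957 reads in WT, or 38.0 and 27.5 CPM. Its log2 fold change of 0.46 lay 6.83 below that of PPP1R16B, and the 95% counting interval of its log2 ratio was 0.36 to 0.58. The 2 paralogs thus shared a direction in these libraries but not a size. Their order per length changed with it, with PPP1R16B at 16.3 and PPP1R16A at 13.8 CPM per kilobase in DR, and 0.0234 and 10.0 in WT.

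The PPP1R12 genes, the other branch of the family, were expressed in both libraries and lay within 2-fold. PPP1R12A had 5551 and 3942 reads (99.9 CPM in DR and 113 CPM in WT) and a log2 fold change of -0.18. PPP1R12B (MYPT2), abundant in striated muscle, had 4009 and 1866 reads (72.2 and 53.5 CPM) and a log2 fold change of 0.43. PPP1R12C, which also targets PP1 to myosin, had 3869 and 2580 reads (69.6 and 74.0 CPM) and a log2 fold change of -0.09. The log2 fold change of PPP1R16B lay 7.47, 6.86 and 7.38 above those of PPP1R12A, PPP1R12B and PPP1R12C. In these libraries the largest difference within the family was that of PPP1R16B, the gene for which the set was proposed.

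The make-up of the family can be read from its summed reads. Of the 21108 reads of the PPP1R12 and PPP1R16 genes in DR, 26.4% came from PPP1R16B (95% Clopper-Pearson interval 25.8 to 27.0), close to the 26.3% of PPP1R12A. Of the 9350 reads in WT, 0.0535% came from PPP1R16B (0.0174 to 0.125), and PPP1R12A had 42.2%. Divided by length, PPP1R16B made up 20.0% of the family in DR and 0.0369% in WT. Summed over the family, the level per length was 81.8 CPM per kilobase in DR and 63.3 in WT. The order per length in DR was PPP1R12C, PPP1R12A, PPP1R16B, PPP1R16A and PPP1R12B, and in WT it was the same without PPP1R16B, which came last.

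PPP1R16B has been studied most in endothelial cells and is also expressed by lymphocytes. Of 8 endothelial markers 5 had counts, with a summed level of 82.8 CPM in DR and 64.2 CPM in WT, most of it EGFL7, while KDR had 9 and 5 reads and CDH5, TEK and ERG were not among the genes with counts. PECAM1 (876 and 263 reads) and VWF (111 and 25 reads) were just over 2-fold higher in DR, at log2 fold changes of 1.02 and 1.04. TIE1 went the other way, with 72 and 63 reads (-0.36). All 5 B cell markers had counts, summing to 17.4 CPM in DR and 6.11 CPM in WT, and 3 of them were more than 2-fold higher in DR, namely CD79A, CD79B and MS4A1. The 4 T cell markers summed to 4.36 and 4.13 CPM. The part of such cells in the level of PPP1R16B was not tested. In bulk RNA, fewer cells of a type and less RNA per cell cannot be told apart.

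On chromosome 20, the genes directly beside PPP1R16B in RefSeq order, among genes of the table, did not share its difference. ACTR5, before it, had 639 and 507 reads (log2 fold change -0.33), and FAM83D, after it, had 1632 and 953 reads (0.10). Slightly further away, RALGAPB, DHX35, TOP1 and PLCG1 lay between -0.23 and 0.06. BPI, LBP and ARHGAP40 had 1, 1 and 6 reads in DR and 0 reads in WT.

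The catalytic genes encode PP1 alpha (PPP1CA), PP1 beta (PPP1CB) and PP1 gamma (PPP1CC), and myosin phosphatase contains the beta form. All were among the abundant genes, at percentiles of at least 82.6 per length in either library. PPP1CA had 6611 reads in DR and 4668 reads in WT, or 119 and 134 CPM, with a log2 fold change of -0.17. PPP1CB had 8726 and 5013 reads, or 157 and 144 CPM, with a log2 fold change of 0.13. PPP1CC had 10022 and 8861 reads, or 180 and 254 CPM, with a log2 fold change of -0.49. The catalytic genes thus lay within 2-fold, with PPP1CB slightly higher and the other genes lower in DR.

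The share of each form in the catalytic pool moved accordingly. Divided by length, PPP1CA made up 43.3% of the pool in DR and 40.6% in WT, PPP1CC 39.0% and 45.9%, and PPP1CB 17.7% and 13.5%. The order of PPP1CA and PPP1CC per length was thus exchanged between the libraries, but their order in reads was not. PPP1CA held 26.1% of the reads in DR and 25.2% in WT, below PPP1CC in both. In reads, PPP1CC held 39.5% of 25359 in DR (95% Clopper-Pearson interval 38.9 to 40.1) and 47.8% of 18542 in WT (47.1 to 48.5). PPP1CA and PPP1CC had fractional counts, and how the authors split their reads is not given in the sources used here.

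**Figure D2:**
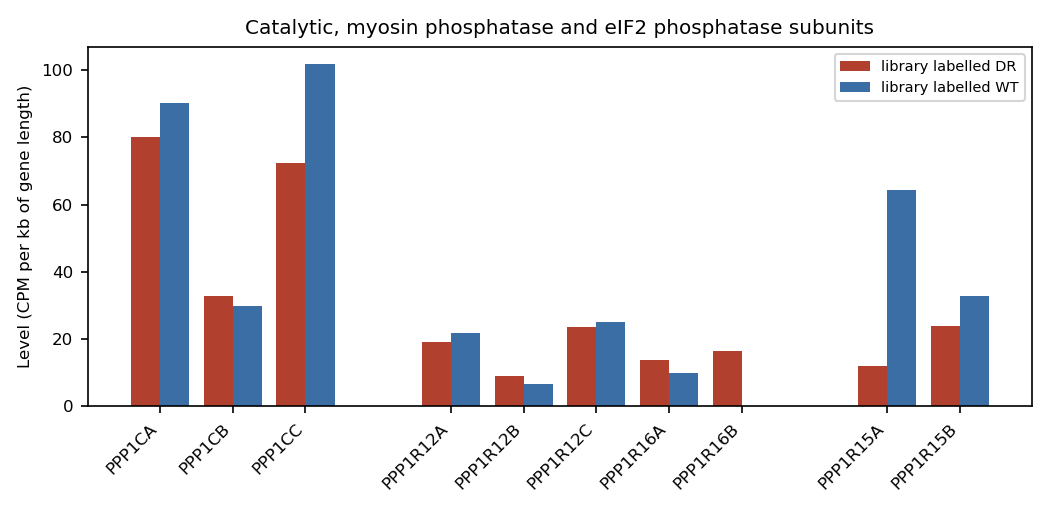
Level in CPM per kilobase of gene length (vertical axis, from 0) of the catalytic genes, the PPP1R12 and PPP1R16 genes and the PPP1R15 genes in the library labelled DR (red) and the library labelled WT (blue), with 1 bar per library and no error bar. The bar of PPP1R16B in WT, at 0.0234, is too low to be seen, and PPP1R15A is the gene whose WT bar most exceeds its DR bar in proportion.

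PPP1R15A and PPP1R15B direct PP1 to eIF2 and so reverse the phosphorylation that stress kinases place on it. PPP1R15A (GADD34) is the stress-induced form and PPP1R15B (CReP) the constitutive one. PPP1R15A (NCBI Gene 23645) had 1589 reads in DR and 5374 reads in WT, or 28.6 and 154 CPM. It was 5.39-fold higher in WT (95% counting interval 5.10 to 5.70), with a log2 fold change of -2.41. PPP1R15B had 6717 and 5760 reads, or 121 and 165 CPM, with a log2 fold change of -0.45. Per length PPP1R15A made up 33.2% of the pair in DR and 66.2% in WT. By that measure the more abundant member was PPP1R15B in DR and PPP1R15A in WT, while in reads PPP1R15B led in both libraries.

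The upstream sequences of this pair are shown because PPP1R15A is the member furthest toward WT while its partner stayed within 2-fold. They are the 250 bases before the annotated start, from RefSeq on GRCh38.p14, written 5′ to 3′ on the strand of the gene, at chr19:48872171-48872420 (plus strand) for PPP1R15A and chr1:204411818-204412067 (minus strand) for PPP1R15B. Capitals mark the cyclic AMP response element, TGACGTCA, which reads the same on both strands.
PPP1R15A: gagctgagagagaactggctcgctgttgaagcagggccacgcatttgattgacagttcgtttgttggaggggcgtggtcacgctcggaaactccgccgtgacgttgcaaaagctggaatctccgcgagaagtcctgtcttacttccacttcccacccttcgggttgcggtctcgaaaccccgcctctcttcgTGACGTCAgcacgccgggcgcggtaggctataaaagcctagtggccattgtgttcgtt
PPP1R15B: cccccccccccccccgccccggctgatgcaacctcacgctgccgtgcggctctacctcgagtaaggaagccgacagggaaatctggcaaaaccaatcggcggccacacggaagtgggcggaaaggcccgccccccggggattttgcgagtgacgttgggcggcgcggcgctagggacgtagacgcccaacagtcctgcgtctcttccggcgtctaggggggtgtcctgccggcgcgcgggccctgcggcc

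The element begins 58 bases before the start of PPP1R15A and does not occur in the window of PPP1R15B. RefSeq promoters, 300 bases each with 50 of them after the start, were found for 33 of the 42 genes, 43 promoters in all. PPP1R16B was not among these genes, so its promoter was not searched. The element stood in 2 of these 43, those of PPP1R15A and PPP1R12C, and in 1.85% of all 35116 promoters. PPP1R12C, with the element, had a log2 fold change of -0.09. A match describes the letters of the window and is not a measured site. The member promoters held a median of 27 CG dinucleotides, against 23 in the 18356 promoters of tested genes.

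The genes that act with this pair were followed through 9 genes of eIF2 phosphorylation. None lay more than 2-fold apart, against 11.6% of all genes, and the median log2 fold change was -0.18. ATF4, the transcription factor that eIF2 phosphorylation induces, had 18258 and 19780 reads (log2 fold change -0.79). DDIT3, its pro-apoptotic target, had 430 and 406 reads (-0.56). EIF2S1, the phosphorylated subunit itself, had 4621 and 5208 reads (-0.84), and the 4 kinases EIF2AK1 to EIF2AK4 lay between -0.18 and 0.39.

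The inhibitory subunits fell into abundant and scarce genes. PPP1R14B (PHI-1), of the CPI-17 family that blocks myosin phosphatase when phosphorylated, was the most abundant of the 42 genes per length in both libraries, with 14833 and 9963 reads, or 257 and 275 CPM per kilobase. Its log2 fold change was -0.10. The other members of that family were nearly absent, PPP1R14D with 15 and 11 reads and PPP1R14A and PPP1R14C under 10 reads. PPP1R2 (inhibitor 2) had 4222 and 2508 reads (0.08) and PPP1R11 (inhibitor 3) had 3040 and 2041 reads (-0.10), so that both abundant inhibitors lay close to equal.

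The inhibitors regulated by cyclic AMP were scarce as well. PPP1R1A (inhibitor 1) had 85 reads in DR and 8 reads in WT, or 1.53 and 0.229 CPM, a ratio of 6.67-fold (95% counting interval 3.23 to 15.9) and a log2 fold change of 1.48. PPP1R1B (DARPP-32), the dopamine-regulated inhibitor of striatal neurons, had 31 and 2 reads, a ratio of 9.73-fold (2.48 to 83.9). Its log2 fold change of 0.92 stayed within 2-fold because of the pseudocount. PPP1R1C had 24 and 8 reads (0.35), with a counting interval that included equality. These genes passed the filter of 10 reads mainly through DR, and their low levels limit what the ratios can show.

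**Figure D3:**
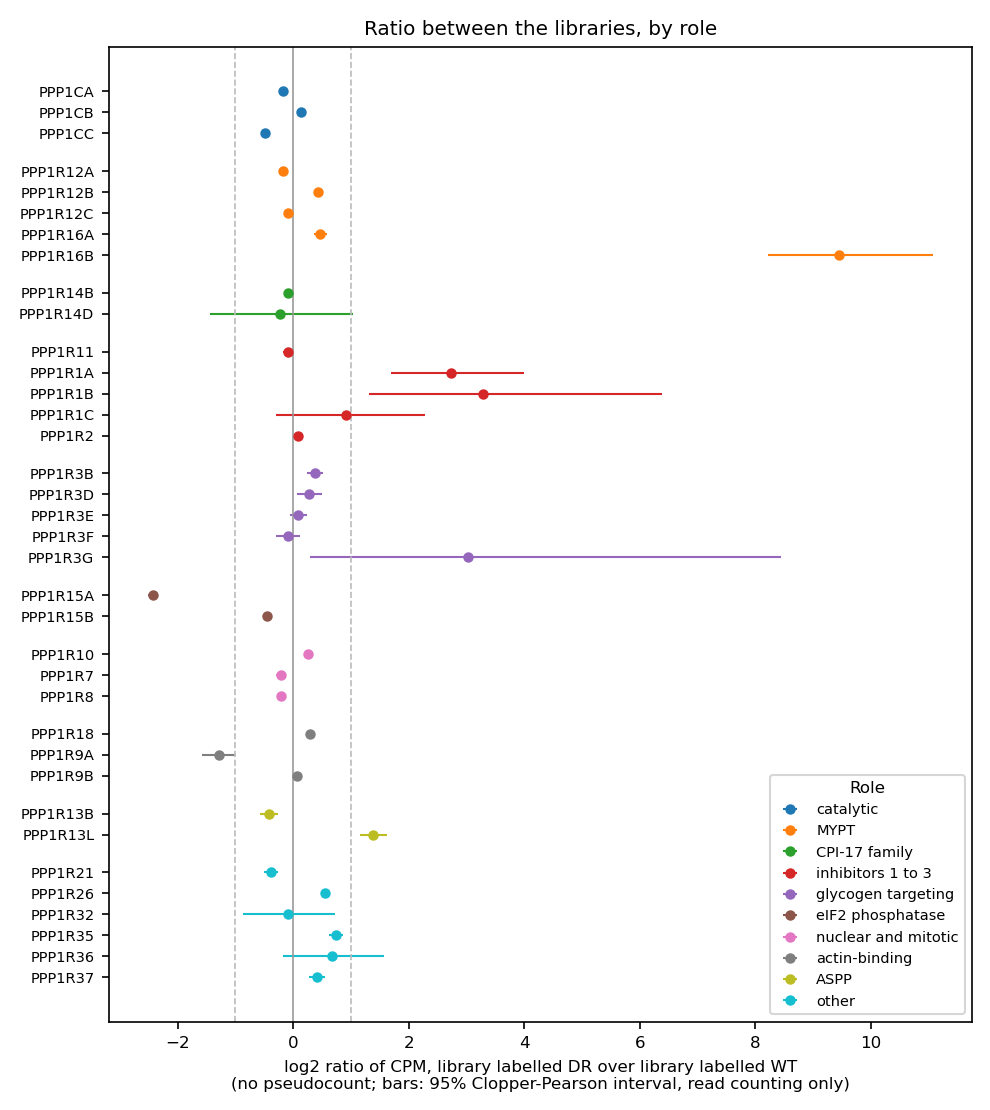
Log2 ratio of CPM without a pseudocount, DR over WT (horizontal axis), for the 36 genes with at least 10 reads, grouped and coloured by role, with bars for the 95% Clopper-Pearson interval of read counting and dashed lines at 2-fold. Most abundant genes have narrow intervals near 0, while PPP1R16B, PPP1R15A, PPP1R13L, PPP1R1A and PPP1R9A stand apart. Without the pseudocount PPP1R1B and PPP1R3G, within 2-fold on the log2 (CPM + 0.5) scale, also stand apart, at 3.28 and 3.03. The genes with few reads have wide intervals.

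PPP1R13L (iASPP) and PPP1R13B (ASPP1) bind p53, which the first restrains and the second assists. PPP1R13L had 817 reads in DR and 196 reads in WT, or 14.7 and 5.62 CPM, a log2 fold change of 1.31 and a ratio of 2.62-fold (95% counting interval 2.24 to 3.07). PPP1R13B had 758 and 633 reads, or 13.6 and 18.2 CPM, and a log2 fold change of -0.40. The more abundant member per length was therefore PPP1R13L in DR (4.93 against 2.75 CPM per kilobase) and PPP1R13B in WT (3.67 against 1.88).

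Among the actin-binding subunits, PPP1R9A (neurabin), a scaffold of neuronal actin, had 176 reads in DR and 270 reads in WT, or 3.17 and 7.75 CPM. It was 2.44-fold higher in WT (95% counting interval 2.01 to 2.97), with a log2 fold change of -1.17. Its counts were fractional and an antisense gene overlaps it, so its value is uncertain. PPP1R9B (spinophilin), its abundant paralog, had 8991 and 5375 reads and a log2 fold change of 0.07. PPP1R18 (phostensin), which caps actin filaments in blood cells, had 7574 and 3903 reads (0.28). Per length PPP1R9B was the highest and PPP1R9A the lowest of these genes in both libraries.

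The nuclear subunits were expressed at near-equal levels. PPP1R7 (SDS22), a leucine-rich partner of the catalytic subunit, had 2518 and 1826 reads and a log2 fold change of -0.21. PPP1R8 (NIPP1), which binds splicing and chromatin factors, had 4172 and 3014 reads (-0.20), and PPP1R10 (PNUTS), which acts at transcription termination, had 6297 and 3322 reads (0.25). Per length they lay between 20.9 and 41.6 CPM per kilobase in either library, with PPP1R7 highest and PPP1R10 lowest.

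The glycogen-targeting subunits, which bring PP1 to glycogen synthase and phosphorylase, had low levels throughout, as did PPP1R13L and PPP1R13B. The 7 genes ranged from 0 to 3.98 CPM per kilobase in DR and from 0 to 3.88 in WT. PPP1R3B, the liver form, had 1204 and 582 reads (log2 fold change 0.37), PPP1R3D 540 and 279 (0.27), PPP1R3E 995 and 588 (0.08) and PPP1R3F 467 and 312 (-0.09). PPP1R3G had 13 reads in DR and 1 read in WT, a ratio of 8.16-fold with a counting interval of 1.23 to 346.6. None of the 5 with at least 10 reads passed 2-fold on the log2 (CPM + 0.5) scale. Of 17 enzymes of glycogen metabolism with at least 10 reads, 1 lay more than 2-fold lower and none higher. Their share past 2-fold was 5.88%, against 11.6% of all genes. The lower gene was PYGL, the liver phosphorylase, with 233 and 566 reads (-1.83).

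Among the remaining members, PPP1R35, a centriole protein, had 2083 reads in DR and 783 reads in WT and the highest log2 fold change of this group, 0.73. PPP1R26 had 5330 and 2290 reads (0.54), PPP1R37 1405 and 661 (0.41) and PPP1R21, an endosomal protein, 1128 and 926 (-0.38). PPP1R36 had 43 and 17 reads and PPP1R32 36 and 24 reads, and the counting intervals of both included equality.

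The partners of myosin phosphatase were followed through 21 genes of myosin, its regulators and the ERM proteins that link actin to the membrane. Of these, 1 lay more than 2-fold higher in DR and 2 lower, and the median log2 fold change was -0.30. The share past 2-fold was 14.3%, close to the 11.6% of all genes. CDC42BPA and CDC42BPB, paralogous kinases of the myosin phosphatase subunit and myosin light chain, went opposite ways. CDC42BPA had 965 reads in DR and 3913 in WT (log2 fold change -2.66), and CDC42BPB had 731 and 150 (1.51). MYLK, the myosin light chain kinase, had 2843 and 4757 reads (-1.41). ROCK1 and ROCK2, which phosphorylate PPP1R12A, lay at -0.78 and -0.52. MSN (moesin), a protein known to bind the PPP1R16B product, had 26366 and 20182 reads (-0.29).

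Of 23 PP1-binding proteins with other symbols, 1 lay more than 2-fold higher in DR and none lower, with a median of -0.21. Their share past 2-fold was 4.35%, against 11.6% of all genes. The higher gene was PHACTR1, a phosphatase and actin regulator, with 1328 reads in DR and 105 reads in WT (log2 fold change 2.80). Its relatives PHACTR2, PHACTR3 and PHACTR4 lay at -0.06, -0.82 and -0.26. None of the 8 catalytic subunits of related phosphatases, from PPP2CA to PPP6C, passed 2-fold, and their median was -0.19, near that of the PP1 catalytic genes (-0.17).

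Some values are uncertain through shared reads. Fractional counts were present in 19 of the 36 genes, and 24 of the 36 overlap another gene in RefSeq, while the strand of the libraries is not given in the sources used here. RefSeq lists 25 pseudogenes of these genes, among them 7 of PPP1R2, 5 of PPP1R14B and 5 of PPP1R26. PPP1R16A, PPP1R12A and PPP1R12B also had fractional counts. PPP1R15A, PPP1R13L and PPP1R1A had whole counts and no overlapping gene.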

How the data were processed

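Total RNA, labelled as that of A375 cells, was sequenced in 1 library labelled DR and 1 labelled WT. The authors deposited estimated counts per gene, not scaled for library size, beside gene length. The table's columns for the authors' own comparison (log2 ratios, p-values, q-values and calls of direction) were left out. Bowtie 0.12.2 and hg19 are listed in the submitters' processing notes. The counting tool, annotation and strand setting are not given in the sources used here. Of 18930 genes, 663 had no count. Estimated counts were rounded, and those of 9108 genes were fractional.

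Scaling used TMM factors (1.01 for DR and 0.988 for WT) in edgeR 4.0.16 under R 4.3.3, with Python 3.11.15 and SciPy 1.17.1 for intervals. Genes under 10 reads in total were left out (2057 genes). Levels were taken to log2 with 0.5 CPM as pseudocount. With 1 library per label no test was fitted, and genes whose log2 fold change reached 1 or -1 were counted as past 2-fold. The 95% Clopper-Pearson intervals and the floor of 3 reads cover counting error only, since reads without molecular identifiers are not independent molecules. The fold and interval calculation was tested on simulated data.

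Members, role groups and gene lists were chosen with earlier results of these data known. Named singly were the catalytic, PPP1R12, PPP1R14 and PPP1R16 genes, members past 2-fold and the extremes of each role group, and the other members stand in their groups. Where a list gene within 2-fold is named, it was picked with its value known. RefSeq (GRCh38.p14) matched all 42 members by NCBI Gene ID and gave gene order, overlaps and promoters. DESeq2 1.42.0 size factors, library totals, other filters, pseudocounts and a higher threshold were tried. Of the 5 genes of the table on either side of PPP1R16B, 1 is not reported here.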

Additional observations from a re-analysis of the deposited data

How the results depend on the processing

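No paired analysis was possible because each label has a single library, and for the same reason no replicate could be left out. Scaling by library totals or DESeq2's size factors, dropping the filter, or asking for 50 reads gave the same 3 members higher and 2 lower in DR as counts. A pseudocount of 0.1 CPM gave 5 higher, since PPP1R1B and PPP1R3G were added. A pseudocount of 5 CPM, which shrinks low genes, gave 1 higher and 1 lower, and a log2 threshold of 2 also gave 1 and 1. Over all genes, 1212 higher and 674 lower became 423 and 333 at 5 CPM and 339 and 189 at the higher threshold. At 5 CPM the log2 fold change of PPP1R16B was 4.35 and its difference from PPP1R16A was 3.95. The pathway and marker counts moved too: at 5 CPM 0 genes of the myosin, plasma cell, B cell and endothelial lists lay past 2-fold higher, and library totals gave 2 myosin genes higher. No member past 2-fold changed direction under these alternatives. Without division by length, the shares of PPP1CA and PPP1CB in the catalytic pool were 26.1% and 34.4% in DR and 25.2% and 27.0% in WT, and that of PPP1CC in WT was 47.8%, since the gene lengths differ. Depth limits the genes with few reads in WT, PPP1R16B with 5 reads included, whose ratios have wide intervals.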
